A study of Homo sapiens with 4 samples.

Results

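The genes described are 8 that carry the death signal to the caspases: the receptors FAS, TNFRSF10A and TNFRSF10B, the adaptor FADD, the regulator CFLAR, the initiator proteases CASP8 and CASP9, and the CASP9 platform APAF1. They were chosen by name as a pathway, with earlier results of these data known. They are 8 of 19970 protein-coding genes on chromosomes 1 to 22 and X. Their STAT5A peaks were every peak credited to a member by the authors, plus any peak within a member's RefSeq span or 1 kb of its ends that was credited to another gene. This gave 14 of 31227 peaks in the list from YTHDF2 knockdown cells and 19 of 55269 in the list from wild-type cells. Both lists come from ARP1, an established human multiple myeloma line labelled as bone marrow. Each rests on 1 chromatin immunoprecipitation with an antibody to STAT5A and 1 input library, 4 libraries in all. One group is labelled as knockdown of YTHDF2, a reader of methylated adenosine on RNA, and the other as wild type, with no agent or control construct named for either. The comparison is thus of STAT5A positions with and without the knockdown. The series text speaks of histone marks and the titles call the inputs RNA, but each library is labelled as DNA and each precipitate as STAT5A, and those labels are followed here.

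With 1 list per condition there is no replicate check, and no test between the conditions could be made. Fold enrichment and q-value are the authors' values for each peak, and the folds of the lists have no stated common scale, so each fold is placed only among the peaks of its own list. Read depth is unknown. A STAT5A peak measures occupancy of chromatin and not the RNA of the gene. Among 8 plasma cell markers, 6 (SDC1 and IRF4 included) carried STAT5A at the promoter in both conditions, and TNFRSF17 and SLAMF7 had none in either. Of 6 markers of other cell types, 1 (COL1A1) had such a peak in knockdown and 3 (COL1A1, GFAP and CD14) in wild type. The share of all protein-coding genes with a promoter peak credited to them was 56.1% for knockdown and 64.7% for wild type. A share of 53.6% had one under each condition. Cell identity is therefore not read from these marker counts.

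Death receptors sit in the cell surface and carry an intracellular death domain. When a ligand such as FASLG or TRAIL clusters them, they recruit FADD, which in turn gathers procaspase-8, and the crowded proenzyme cuts itself into the active protease CASP8. CFLAR encodes c-FLIP, a relative of CASP8 that lacks its protease activity and limits activation at the same complex. In the second route, cytochrome c from the mitochondrion lets APAF1 assemble the apoptosome, which activates CASP9. Both routes meet at the executioner caspases. STAT5A is a transcription factor downstream of cytokine receptors and JAK kinases, best known in blood cells for activating survival genes.

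All 8 members had a promoter peak credited to them in the knockdown list, and 5 had one in the wild-type list: FAS, FADD, TNFRSF10A, CFLAR and CASP9. Promoter peaks are those whose nearest edge lies within 1 kb of a transcript start by the authors' distance. Of all protein-coding genes, 56.1% had such a credit in knockdown, 64.7% in wild type and 53.6% in both, so the wild-type count of members was close to the background. TNFRSF10B, CASP8 and APAF1 were credited in knockdown only, as were 2.42% of all protein-coding genes, and no member was credited in wild type only, as were 11.0%. For TNFRSF10B and APAF1 the difference was one of credit, because a wild-type peak lay over the same start and was assigned to a neighbouring gene. With a 3 kb window in place of 1 kb, 6 members were credited in wild type, TNFRSF10B being added through a peak upstream of its start, so that its call in knockdown only ended. CASP8 was the remaining case, with no wild-type peak that overlapped its knockdown peak. Genes credited in knockdown only and without any overlapping wild-type peak made up 1.11% of protein-coding genes.

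With credit set aside, 6 members had a peak within 1 kb of the RefSeq 5′ end of the gene in each list. FAS was not among them in either list, and CASP8 not in knockdown, since those peaks lie at starts far inside the RefSeq span, and in wild type CASP8 had no peak at all. The share of all protein-coding genes with a peak at the RefSeq 5′ end was not computed, so nothing is read from this count of 6. When any peak within 1 kb of any named transcript start of the gene was counted, all 8 members had one in knockdown and 7 in wild type. The named starts included those the authors used for peaks credited to the gene. A gene with a credited promoter peak was therefore counted by construction, and the 8 in knockdown add nothing to the 8 credited promoter peaks. The same count gave 69.0% of protein-coding genes in knockdown and 79.1% in wild type, among the 18791 whose strand was known from the lists or the promoter table. This way of counting was added after the data were seen.

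**Figure D1:**
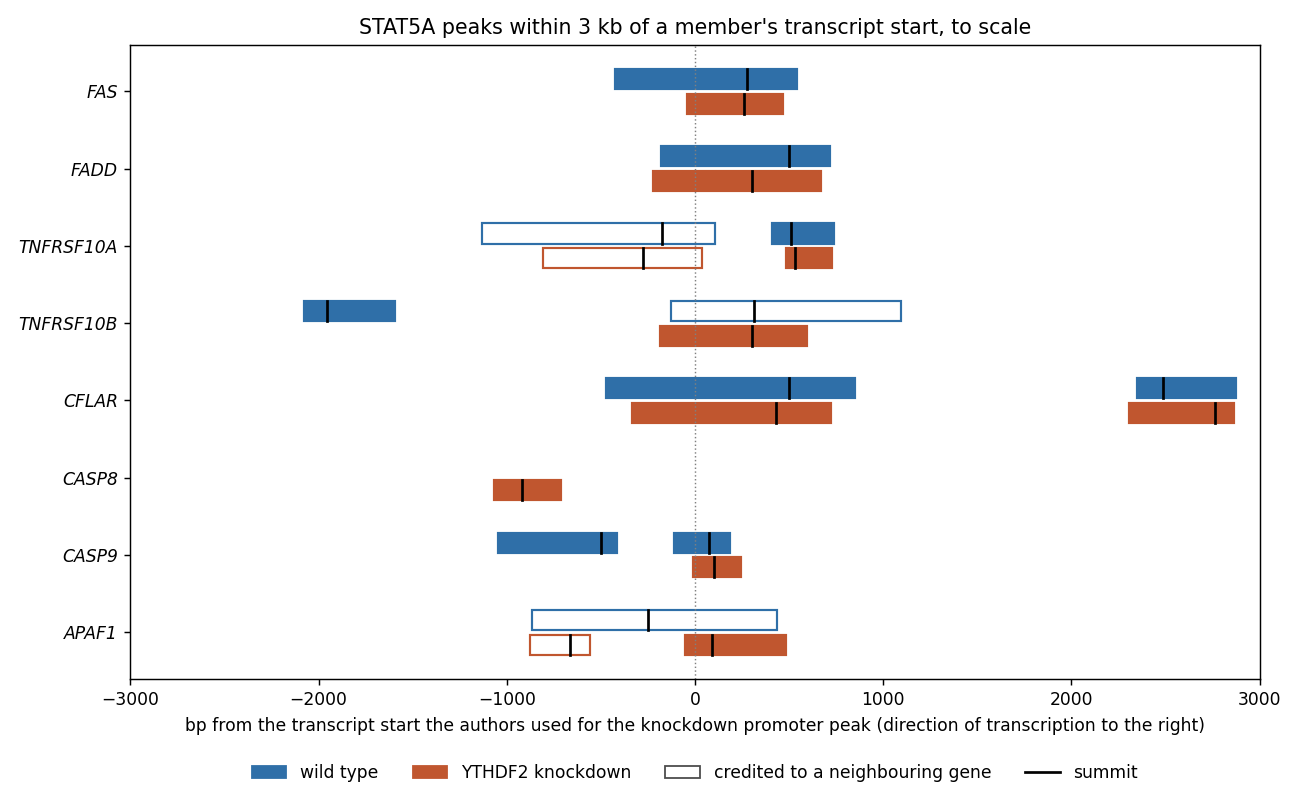
Peaks within 3 kb of the transcript start that the authors used for each member's knockdown promoter peak, drawn to scale, with distance in bp on the x axis and transcription to the right. Filled bars are peaks credited to the member, open bars are peaks credited to a neighbour, and black ticks are summits. Wild-type and knockdown bars lie over each other at 7 members, and CASP8 has a bar in knockdown only.

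The pair of receptors for TRAIL lie in the same cluster on chromosome 8 and both had peaks over their starts that were named for a neighbour. TNFRSF10A, encoding the receptor DR4, held 2 peaks in each list. The stronger one spanned 23224565 to 23225406 in knockdown, with a fold of 4.64, and 23224492 to 23225732 in wild type, with a fold of 11.4. It covered the RefSeq start of TNFRSF10A at 23225102 in both lists, yet was credited in both to LOC389641, now TNFRSF10A-DT, a noncoding gene that begins 118 bp away. The peak credited to TNFRSF10A itself was smaller, 23223875 to 23224119 in knockdown (fold 3.84) and 23223864 to 23224192 in wild type (fold 4.00), with summits 20 bp apart. In wild type this credited peak stood above 6.21% of promoter peaks and the one under the neighbour's name above 67.3%, so the credited fold alone gives the lower of the values at this gene.

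TNFRSF10B, encoding the receptor DR5, had the highest fold of all member peaks in the knockdown list. That peak spanned 23068585 to 23069364 with a fold of 6.73 and a q-value of 8.14e-14, above 78.8% of knockdown promoter peaks. The wild-type peak at the same place, 23068083 to 23069306, had a fold of 8.27 and stood above 47.6% of wild-type promoter peaks. Their summits were 12 bp apart, the closest of any member pair. The wild-type peak also reached the start of TNFRSF10B-AS1, listed as LOC286059, and carried that name. A second wild-type peak, 23070776 to 23071256 with a fold of 5.90, lay 1745 bp upstream of the RefSeq gene and had no knockdown counterpart. Both lists also credited to TNFRSF10B a weak peak beyond its 3′ end, with folds of 3.02 in knockdown and 4.70 in wild type. This peak lies inside the RefSeq span of RHOBTB2, the next gene, and the knockdown q-value of 0.0102 was the largest of all member peaks.

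**Figure D2:**
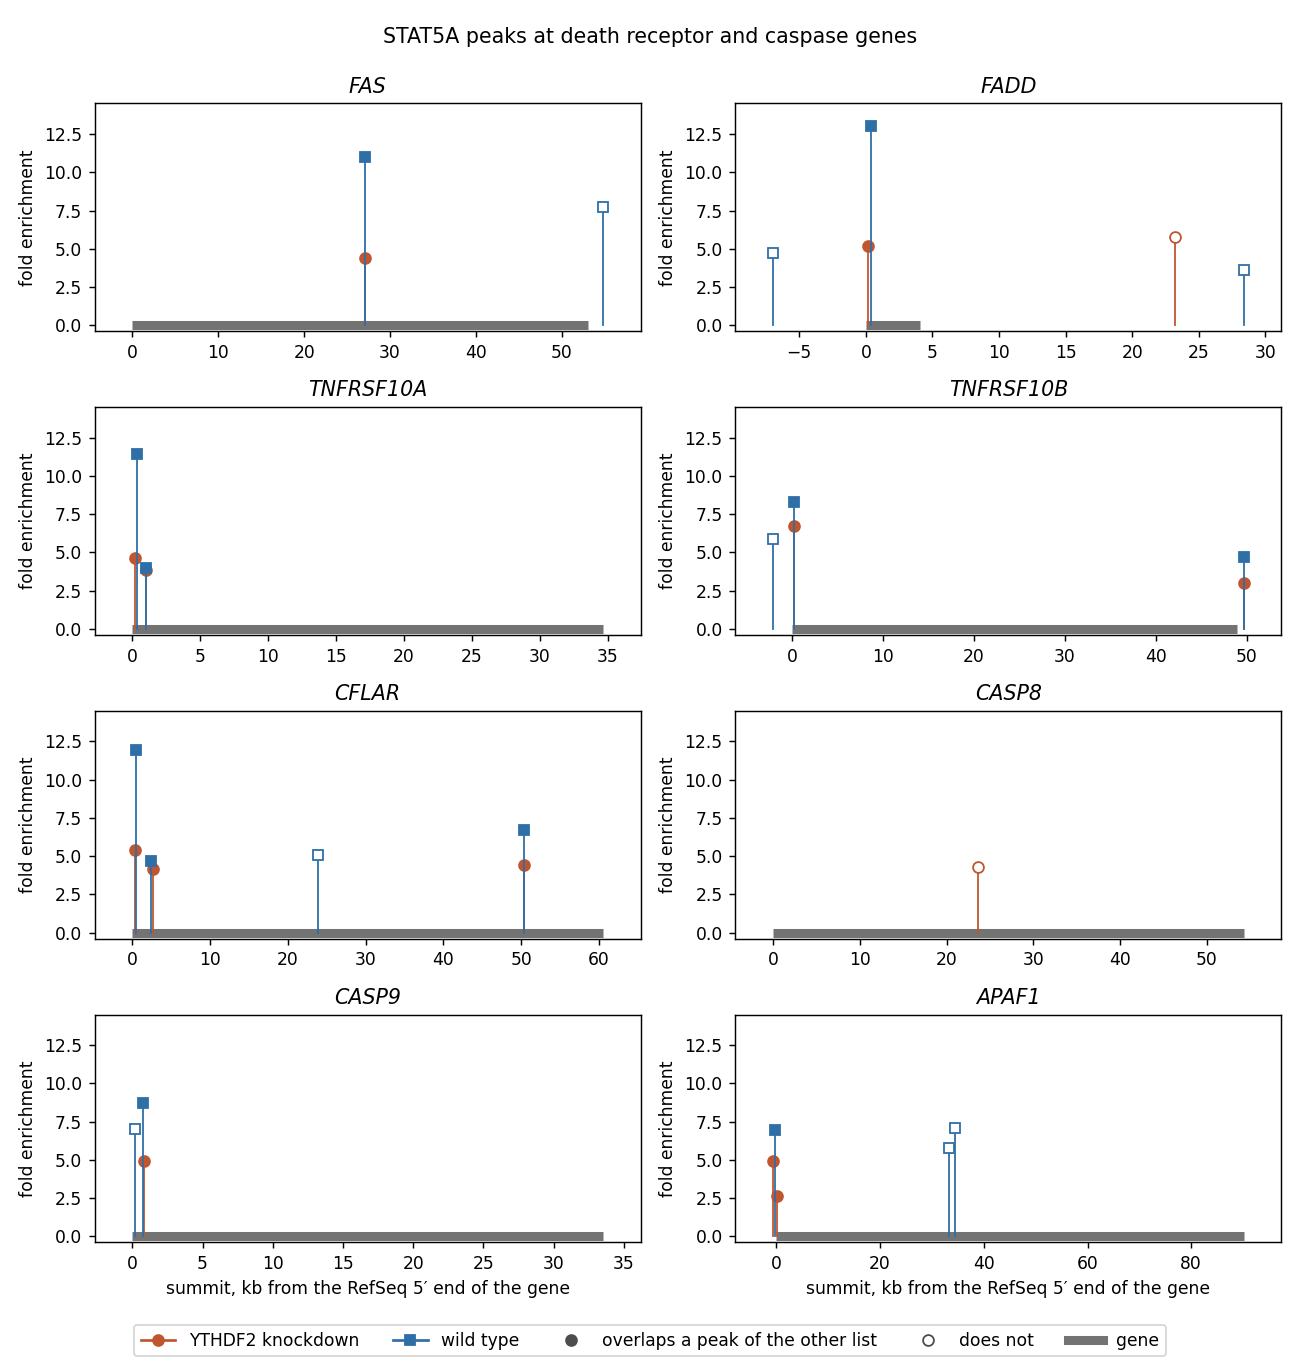
Fold enrichment (y axis, authors' values) of every member peak against the position of its summit in kb from the RefSeq 5′ end of the gene (x axis). Circles are knockdown and squares wild type, filled where the peak overlaps a peak of the other list, and the grey bar is the gene. The filled symbols lie mostly at starts, and the single symbol at CASP8 is open.

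At FAS, the receptor for FASLG (chromosome 10, gene at 88964050 to 89017059 on the plus strand), a promoter peak was present in both lists. In knockdown it ran from 88990811 to 88991319 (fold 4.41, q-value 4.79e-09). In wild type it ran from 88990425 to 88991395 (fold 11.0, q-value 2.2e-27). The smaller peak lay wholly inside the larger, and the summits were 16 bp apart. These placed FAS above 39.6% of promoter peaks in knockdown and 64.8% in wild type. The span also belongs to ACTA2, whose RefSeq gene overlaps FAS by 27288 bp, so occupancy here cannot be assigned to either gene alone. A second wild-type peak, 89018592 to 89019078 with a fold of 7.70, lay 1533 bp past the end of FAS, and the nearest knockdown peak was 27273 bp away. The 250 bases before the RefSeq start at 88990798 (chr10:88990548-88990797, plus strand) are shown because the wild-type peak covered all 250 and the knockdown peak none of them. Capitals here and in the sequences that follow mark GGGCGG, a GC box, in either orientation, CCAAT in either orientation, and the STAT motif TTCNNNGAA.
FAS: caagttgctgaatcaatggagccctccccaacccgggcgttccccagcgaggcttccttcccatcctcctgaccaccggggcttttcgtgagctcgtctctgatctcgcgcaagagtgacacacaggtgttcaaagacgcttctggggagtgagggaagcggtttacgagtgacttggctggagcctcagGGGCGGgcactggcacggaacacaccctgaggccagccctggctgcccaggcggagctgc

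FADD, the adaptor that links a clustered receptor to procaspase-8 (chromosome 11, 70203296 to 70207390, plus strand), had the highest member fold in the wild-type list. Its promoter peak spanned 70202982 to 70203879 with a fold of 13.0 and a q-value of 6.69e-44, above 74.2% of wild-type promoter peaks. In knockdown it spanned 70202937 to 70203831 with a fold of 5.16 and a q-value of 2.69e-14, above 57.2% of knockdown promoter peaks. The peaks shared 850 bp and were of nearly equal width (knockdown 895 bp, wild type 898 bp), while their summits lay 195 bp apart. A further 3 peaks were credited to FADD from a distance and none of them overlapped the other list. Those were a knockdown peak at 70226315 to 70226573 (fold 5.77), 18925 bp past the gene, and wild-type peaks at 70196265 to 70196689 (fold 4.73) and 70231525 to 70231842 (fold 3.64). The sequence before its start (chr11:70203046-70203295, plus strand) lay under the peaks of both lists over its whole length and held 32 CpG sites, against a median of 11 in all promoter windows.
FADD: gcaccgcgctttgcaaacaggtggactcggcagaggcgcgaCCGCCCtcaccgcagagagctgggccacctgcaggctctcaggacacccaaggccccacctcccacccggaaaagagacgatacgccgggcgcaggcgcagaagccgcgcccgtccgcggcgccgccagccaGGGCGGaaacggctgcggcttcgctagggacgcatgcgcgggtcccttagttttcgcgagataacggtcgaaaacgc

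CFLAR had the most peaks of any member, 3 in knockdown and 4 in wild type (chromosome 2, 201116164 to 201176687, plus strand). The first start lay under 201115771 to 201116825 in knockdown (fold 5.38) and under 201115629 to 201116956 in wild type (fold 11.9). They stood above 61.5% and 69.8% of the promoter peaks of their lists. A second start some way into the gene carried a weaker peak in both lists, 201118412 to 201118965 in knockdown (fold 4.14) and 201118453 to 201118976 in wild type (fold 4.70). These peaks shared 513 bp, but their summits were 278 bp apart. Another pair, 201166198 to 201166658 (fold 4.40) and 201166314 to 201166730 (fold 6.68), lay inside CFLAR near its 3′ end and was credited in both lists to the antisense gene CFLAR-AS1. A wild-type peak at an internal start, 201139964 to 201140203 with a fold of 5.07, was the only one of the 4 without a knockdown counterpart, and the nearest knockdown peak was 20999 bp away. Windows for the second start (chr2:201118466-201118715) and for the internal start (chr2:201140025-201140274), both plus strand, are shown to set a shared site beside an unshared one. Both lists covered all 250 bases of the first window, and the wild-type peak covered 179 bases of the second and the knockdown list none.
CFLAR, second start: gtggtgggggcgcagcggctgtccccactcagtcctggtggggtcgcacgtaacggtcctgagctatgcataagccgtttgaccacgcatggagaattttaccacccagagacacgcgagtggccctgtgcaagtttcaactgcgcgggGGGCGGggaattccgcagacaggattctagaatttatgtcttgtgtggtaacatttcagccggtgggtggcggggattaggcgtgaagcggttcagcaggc
CFLAR, internal start: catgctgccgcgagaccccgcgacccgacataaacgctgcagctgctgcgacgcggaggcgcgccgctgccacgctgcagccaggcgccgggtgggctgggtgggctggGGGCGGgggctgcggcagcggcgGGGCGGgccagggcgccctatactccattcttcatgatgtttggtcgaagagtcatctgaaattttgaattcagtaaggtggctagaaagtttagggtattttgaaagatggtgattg

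CASP8, the initiator caspase of the receptor complex, lies beyond CASP10 on the same strand of chromosome 2, at 201233463 to 201287711. Its only peak was in the knockdown list, 201256910 to 201257268, with a fold of 4.26 and a q-value of 7.17e-05. The peak was 359 bp wide and its edge lay 712 bp upstream of an internal transcript start at 201257980, which is what made it a promoter peak in the authors' annotation. It stood 23447 bp inside the RefSeq gene, whose first start had no peak in either list. Its fold was above that of 34.9% of knockdown promoter peaks. Of 15571 knockdown promoter peaks, 988 (6.35%) had no wild-type counterpart, and the CASP8 peak exceeded 66.9% of these, whose median fold was 3.84. The nearest wild-type peaks were 90179 bp to the left, in CFLAR, and 184691 bp to the right, credited to TRAK2. Across the 173.548 kb from CFLAR to CASP8 each list held 4 peaks, and CASP10, the related caspase gene between them, held none in either list. The window before the first RefSeq start (chr2:201233213-201233462, plus strand) is shown because it was the only one of 14 member windows with TTCNNNGAA, and no peak of either list touched it. Of all promoter windows, 6.57% held this motif. The window before 201258035, a RefSeq start near the CASP8 peak, did not hold it, and no peak touched that window either.
CASP8, first start: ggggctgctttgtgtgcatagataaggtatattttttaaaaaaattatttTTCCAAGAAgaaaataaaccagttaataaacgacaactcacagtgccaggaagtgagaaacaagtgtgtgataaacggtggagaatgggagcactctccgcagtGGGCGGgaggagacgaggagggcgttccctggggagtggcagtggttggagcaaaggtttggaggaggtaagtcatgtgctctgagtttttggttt

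CASP9, the initiator caspase of the mitochondrial route (chromosome 1, 15491401 to 15524912, minus strand), had 1 peak in knockdown and 2 in wild type. The shared peak spanned 15523947 to 15524204 in knockdown, with a fold of 4.93 and a q-value of 9.57e-08, and 15524008 to 15524305 in wild type, with a fold of 8.73 and a q-value of 1.07e-16. Their summits were 30 bp apart. They stood above 52.7% and 50.7% of promoter peaks, near the middle of each list. The wild-type list added a peak further upstream, 15524609 to 15525240 with a fold of 7.04, that the knockdown list lacked, its nearest peak being 405 bp away. Windows before the pair of RefSeq starts (chr1:15524791-15525040 and chr1:15524216-15524465, minus strand, printed in the direction of transcription) are shown because the extra wild-type peak covered all 250 bases of the first. The other wild-type peak covered 90 bases of the second, and the knockdown peak touched neither window. Each window held 8 GC boxes, counted with overlaps, a number that 0.586% of all windows reached or passed.
CASP9, upstream start: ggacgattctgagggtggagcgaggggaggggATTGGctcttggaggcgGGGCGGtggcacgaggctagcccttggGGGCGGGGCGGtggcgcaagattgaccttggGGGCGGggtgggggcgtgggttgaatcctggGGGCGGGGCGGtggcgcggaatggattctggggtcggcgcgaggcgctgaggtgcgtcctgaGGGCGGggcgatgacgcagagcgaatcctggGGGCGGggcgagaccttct
CASP9, downstream start: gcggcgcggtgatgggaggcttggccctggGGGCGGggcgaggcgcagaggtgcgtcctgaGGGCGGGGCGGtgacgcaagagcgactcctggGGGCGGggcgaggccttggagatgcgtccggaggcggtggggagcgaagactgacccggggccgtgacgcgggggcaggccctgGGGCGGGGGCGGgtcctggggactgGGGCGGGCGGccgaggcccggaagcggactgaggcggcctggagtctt

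APAF1, the scaffold of the apoptosome (chromosome 12, 98645290 to 98735433, plus strand), starts 501 bp from IKBIP, a gene that runs the other way. In wild type 1 broad peak, 98644433 to 98645734 with a fold of 6.97 and a q-value of 2.98e-16, covered the starts of both genes and was credited to IKBIP. In knockdown the same stretch held 2 separate peaks, 98644425 to 98644743 (fold 4.91) credited to IKBIP and 98645247 to 98645782 (fold 2.66) credited to APAF1. Both overlapped the wild-type peak, by 311 and 488 bp. The knockdown peak at the APAF1 start was the weakest member peak of either list, above 1.23% of knockdown promoter peaks, with a q-value of 0.00174. Counted from the APAF1 start, the wild-type summit lay at -238 bp and the summit of that knockdown peak at 100 bp. Inside the gene the wild-type list had a further pair of peaks in intron 13 of 26, 98678486 to 98678774 (fold 5.78) and 98679714 to 98679974 (fold 7.08), with no knockdown peak closer than 32704 bp. The window before the start (chr12:98645040-98645289, plus strand) lay wholly under the wild-type peak and held its summit, and the knockdown peak touched its last 43 bases. It had 38 CpG sites, the most of the 14 member windows.
APAF1: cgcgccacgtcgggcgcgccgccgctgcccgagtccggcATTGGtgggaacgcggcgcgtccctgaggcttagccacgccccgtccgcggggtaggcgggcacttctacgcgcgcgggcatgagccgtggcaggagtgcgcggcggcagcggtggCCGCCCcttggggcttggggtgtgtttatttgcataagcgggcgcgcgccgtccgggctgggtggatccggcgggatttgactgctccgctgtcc

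Of the 8 members, 6 matched 14 windows in the RefSeq promoter table (GRCh38.p14), each taken here as the 250 bases before a start. Knockdown peaks touched 5 of these and wild-type peaks 9, where 37.3% and 48.5% of the windows of all genes were touched. Windows of a gene can overlap, so the 14 are not independent. The STAT motif TTCNNNGAA occurred in 1 of the 14, against 6.57% of 34961 windows of all genes on the chromosomes used. A version with 1 more free base in the middle also occurred in 1, a CFLAR window that no peak touched, against 5.34% of all windows. GC boxes occurred in 10 of the 14, against 42.7% of all windows, and CCAAT in 3, against 32.0%. These are matches of letters on both strands and show nothing about which factor was bound.

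Taken by position, 11 of the 14 knockdown peaks and 11 of the 19 wild-type peaks of the members lay within 1 kb of a start, where 49.9% of all knockdown peaks and 38.9% of all wild-type peaks did. Member peaks were gathered by gene, which by itself favours peaks near starts, so nothing is read from this difference. The remaining wild-type peaks comprised 3 in distal intergenic sequence, 2 in an intron, 2 annotated to a 3′ UTR and 1 between 1 and 2 kb from a start. In knockdown there were 1 distal intergenic peak and 2 annotated to a 3′ UTR. Of the member peaks, 12 of 14 in knockdown overlapped a wild-type peak and 11 of 19 in wild type overlapped a knockdown peak, where 77.1% of all knockdown peaks and 40.4% of all wild-type peaks did. Among promoter peaks alone, 10 of 11 member peaks in knockdown overlapped, and 6.35% of all knockdown promoter peaks had no counterpart. In wild type 9 of 11 overlapped, and the share of all wild-type promoter peaks was not computed. Promoter peaks are more frequent among the members, so nothing is read from the difference in overlap. The 12 overlapping pairs had summits 12 to 417 bp apart, with a median of 64 bp. All 3 pairs beyond 200 bp in this distance were at APAF1 and at the second start of CFLAR.

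Member promoter peaks were of ordinary strength in both lists. Their folds in knockdown ran from 2.66 to 6.73, and the fold that marks the top 10% of knockdown promoter peaks was 11.8. In wild type they ran from 4.00 to 13.0, and the corresponding fold was 21.3. No member promoter peak reached either value. In each list 5 of the 11 lay above the median fold of promoter peaks, which was 4.83 in knockdown and 8.61 in wild type. By their highest promoter peak, whatever its credit, the order of the members differed between the lists, with TNFRSF10B first in knockdown, followed by CFLAR and FADD, and FADD first in wild type, followed by CFLAR and TNFRSF10A. With 1 value per list, no spread is available to say which neighbours in either order differ.

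**Figure D3:**
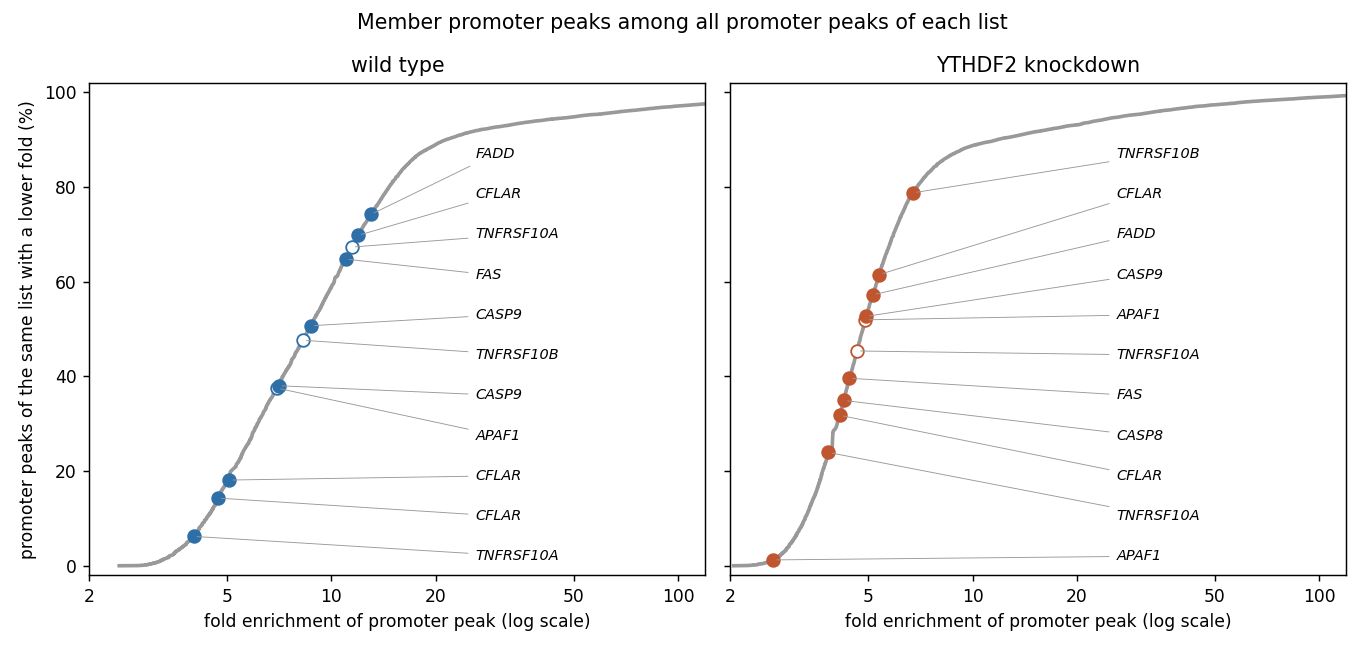
Cumulative curve of fold enrichment for all promoter peaks of each list (grey, log x axis), with the share of promoter peaks of lower fold on the y axis in percent, and the 11 member promoter peaks of each list placed on it. Open circles are peaks credited to a neighbouring gene. In wild type the points run from 6.21 to 74.2% and in knockdown from 1.23 to 78.8%.

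Other genes of the death receptor and caspase pathway were covered by a list of 30. Of these, 19 had a credited promoter peak in both lists, none in knockdown only, 5 in wild type only and 6 in neither. In knockdown 63.3% of the list thus had a peak and in wild type 80%, beside the 56.1% and 64.7% of all protein-coding genes given above. Of all protein-coding genes, 53.6% were credited in both lists, 2.42% in knockdown only, 11.0% in wild type only and the rest in neither. Nothing is therefore read from the 6 pathway genes without a credit. For the pathway genes, the median fold of the highest promoter peak was 4.85 in knockdown and 9.33 in wild type. For the members it was 4.67 over 8 genes and 11.0 over 5 genes.

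The 5 genes of that list with the strongest promoter peaks were HTRA2, PIDD1, DEDD, CASP2 and BID, all ranked by wild-type fold. HTRA2, a mitochondrial protease that counters inhibitors of caspases, had a fold of 26.2 in knockdown and 92.9 in wild type. PIDD1, which encodes a death domain protein that helps activate CASP2, had folds of 16.2 and 44.2. CASP2 itself had folds of 5.79 and 21.7. DEDD, encoding a death effector domain protein, had folds of 6.21 and 22.6. BID, which carries the signal of CASP8 to the mitochondrion, had folds of 5.36 and 20.7. Each of these stood above every wild-type promoter peak of the members and, at HTRA2 and PIDD1, above every knockdown one as well.

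Promoter peaks in wild type only were those of the receptor TNFRSF25 (fold 7.47), the decoy receptor for FASLG encoded by TNFRSF6B (9.00), the adaptors TRADD (6.55) and CRADD (6.52), and BIRC3 (8.83), an inhibitor of apoptosis. None of these peaks overlapped a knockdown peak, although a knockdown peak credited to another gene lay within 1 kb of a named TRADD start. Beside them, 11.0% of all protein-coding genes were credited in wild type only. Of all wild-type peaks, at promoters or elsewhere, 40.4% overlapped a knockdown peak, and the share for promoter peaks alone was not computed. These genes were also picked for having no knockdown credit, so nothing is read from their lack of overlap. The 6 genes with no credited promoter peak in either list were the ligands FASLG, TNFSF10 and TNF, and CASP10, CYLD and FAF1. Peaks credited to other genes lay within 1 kb of a named CYLD start in both lists. The decoy receptors of TRAIL, TNFRSF10C and TNFRSF10D, which lie beside TNFRSF10A and TNFRSF10B, had promoter peaks in both lists, with folds of 3.56 and 3.41 in knockdown and 5.65 and 8.36 in wild type. These decoys were named after their values were seen.

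**Figure D4:**
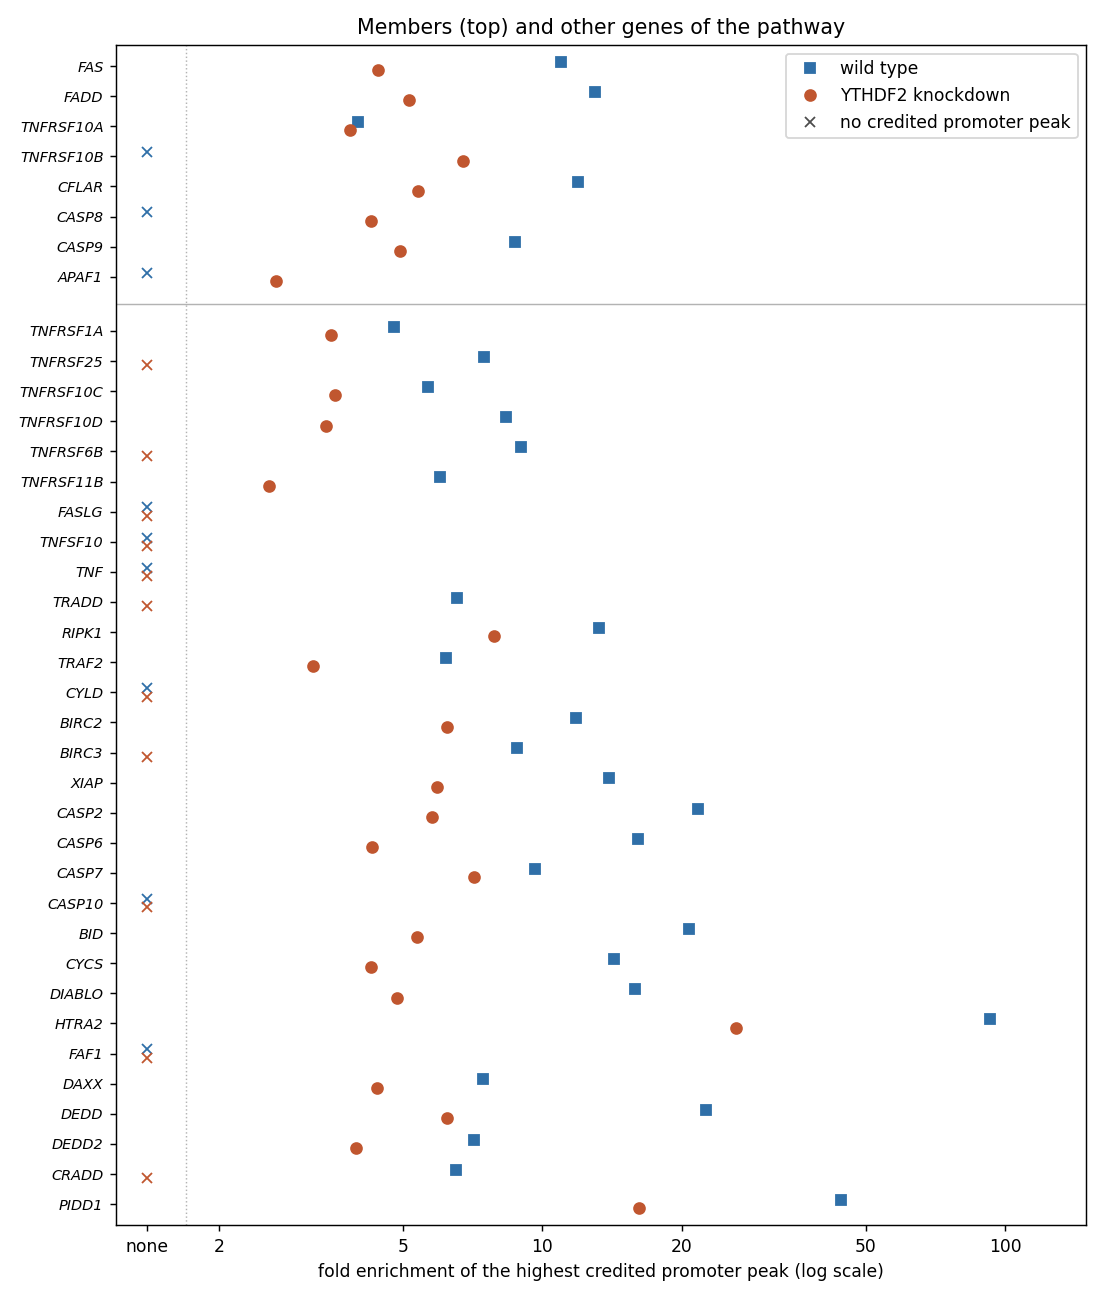
Fold enrichment of the highest credited promoter peak (log x axis) for the 8 members above the line and the 30 other pathway genes below it. Squares are wild type, circles are knockdown and crosses mark genes with no credited promoter peak in that list. Members have crosses in wild type at TNFRSF10B, CASP8 and APAF1, and the other genes have them in knockdown alone at 5 genes and in both lists at 6.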

How the data were processed

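STAT5A chromatin immunoprecipitation and input libraries were made from ARP1 cells, wild type and YTHDF2 knockdown, 1 of each per condition. Reads were processed with cutadapt, Trimmomatic, FastQC, Bowtie2 and MACS2 on hg38, per the submitters' processing notes, which give no versions. The authors deposited 1 annotated peak list per condition, with fold enrichment as a ratio and a p-value and q-value for each peak. What the fold is relative to, how inputs were used, and the tool that assigned genes are not given in the sources used here. Depth is unknown, so no interval or detection limit is given.

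From these lists, peaks were tied to genes by the authors' credit and by overlap with RefSeq spans (GRCh38.p14, the same build as hg38) widened by 1 kb. Of the gene IDs credited, 15418 of 15465 in knockdown and 17841 of 17903 in wild type matched the RefSeq table. Peaks of the lists were called shared when they overlapped by at least 1 bp. Python 3.11.15, numpy 2.4.6 and pandas 2.3.3 were used, and the overlap code was tested on simulated data. Text names all members, the genes their peaks were credited to, and, of 30 pathway genes, the 5 of highest promoter fold, those with a promoter peak in 1 list only and those with none. The list as first drawn up held 1 more gene, which was left out of the counts and is not reported here. Members and lists were chosen with earlier results of these data known. Alternatives changed the q-value and fold thresholds, list length, merging of peaks, windows and the definition of a shared peak. Promoter sequences are from RefSeq.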

Additional observations from a re-analysis of the deposited data

How the results depend on the processing

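No paired analysis was possible because each condition has 1 peak list, and no replicate could be left out. A minimum fold of 5 moved the knockdown counts most. It left 4 member peaks of 14, 3 members with a promoter peak (TNFRSF10B, CFLAR and FADD, with FAS, TNFRSF10A, CASP8, CASP9 and APAF1 lost), 3 with a peak at the RefSeq 5′ end, and 3 shared peaks in each list. The same fold is a stricter setting in the knockdown list, whose median fold is lower. When shared peaks had to have summits within 100 bp, 7 were shared in each list. The remaining 53 counts stayed within 1.5 times. Some of them could not change, such as the knockdown peak and promoter counts when only the wild-type list was shortened. Folds of single genes say nothing of stability, since a peak that passes a setting keeps its deposited fold. Below that size of change, a q-value of at most 0.001 removed the credited TNFRSF10A and APAF1 promoter peaks from knockdown. The credited wild-type peak of TNFRSF10A was lost both at the minimum fold of 5 and when only as many wild-type peaks as knockdown has were kept, by q-value, each leaving 4 members. In each of these cases the stronger peak over the TNFRSF10A start, credited to its neighbour, was kept, and 6 members still had a peak at the RefSeq 5′ end in the list concerned. The count at any named start was chosen after seeing the data. Without replicates or read counts, a peak missing from a list cannot be told apart from one below its threshold.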
